A study of Mus musculus with 10 samples.

Results

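The C/EBP factors examined were Cebpa, Cebpb, Cebpd and Cebpg, 4 of the 33347 genes in the count table, selected on gene symbol. Cebpd was chosen by its measured difference in counts between the groups compared here, so that difference is a description, without a test. All 4 passed the filter on low counts and were among the 10844 genes tested. They were measured in 10 lung samples of WT mice given bleomycin, a drug that breaks DNA and is used to model lung fibrosis. The tissue came from 5 recipients of marrow cells high in aldehyde dehydrogenase (ALDH) activity, called ALDHbr, and 5 recipients of marrow cells low in it, called ALDHdim. Bleomycin and a cell injection were common to both groups, and no lung without bleomycin or without transferred cells was analysed here. The sources used here do not give the strain, sex, age or time after transfer, nor whether each sample is a separate animal, so p-values measure only the spread between these samples, which may be technical.

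C/EBP proteins are transcription factors that pair through a leucine zipper and bind DNA through the adjoining basic region, as homodimers or with each other. C/EBPα drives differentiation of hepatocytes, adipocytes and granulocytes and, in the lung, maturation of alveolar type 2 and airway cells. C/EBPβ and C/EBPδ are induced by inflammatory cytokines and act on acute-phase genes, and the Cebpd gene also responds to STAT3 and glucocorticoids. C/EBPγ lacks a classical activation domain and works as a partner of the other members and of ATF4 in the amino acid and oxidative stress response.

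On GRCm38 the genes lie on 3 chromosomes. Cebpa spans chr7:35119293-35121928 on the plus strand and Cebpg chr7:35046422-35056573 on the minus strand, with 62719 bases between them. Cebpb spans chr2:167688915-167690418 and Cebpd chr16:15887286-15891031, both on the plus strand. Of the 1504 exonic bases of Cebpb, 312 are shared with Tmem189, and of the 3746 of Cebpd, 562 with Spidr, both on the opposite strand. The sources used here do not say whether counting used strand, so reads in those stretches cannot be told apart. Tmem189 held 918 counts over all libraries, against 2926 for Cebpb. Spidr held 21 counts over all libraries, against 2329 for Cebpd.

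The starts of the members differ in sequence, and the part around each start is shown for the 3 members found in the RefSeq promoter table (GRCm38.p6), because their transcripts are compared across libraries below. Each sequence runs 5′ to 3′ on the gene's strand from 100 bases before to 50 bases after the annotated start. The positions are chr7:35119193-35119342 for Cebpa, chr2:167688815-167688964 for Cebpb and chr7:35056517-35056666 for Cebpg. Capitals mark matches, on either strand, to 3 motifs. The TATA box was searched as TATAAA, wherever it lay in the window. The CCAAT box was searched by the letters of its name. The core of a CREB site was searched as TGACG.
Cebpa: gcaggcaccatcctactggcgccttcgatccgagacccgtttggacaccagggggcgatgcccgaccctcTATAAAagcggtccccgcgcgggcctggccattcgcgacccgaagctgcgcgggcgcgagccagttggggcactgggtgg
Cebpb: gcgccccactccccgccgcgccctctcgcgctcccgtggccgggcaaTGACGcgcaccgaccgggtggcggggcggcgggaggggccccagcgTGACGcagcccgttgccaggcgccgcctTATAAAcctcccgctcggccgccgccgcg
Cebpg: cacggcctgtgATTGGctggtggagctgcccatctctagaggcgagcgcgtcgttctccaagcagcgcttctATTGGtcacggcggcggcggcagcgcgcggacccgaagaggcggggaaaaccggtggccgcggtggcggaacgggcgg
The letters TATAAA match 1 time in Cebpa, before the annotated start, and 1 time in Cebpb, after the annotated start. Whether transcripts begin at the annotated starts was not tested. Of the 32851 promoter windows of 300 bases in the table, 13.6% hold them. Cebpg holds 0 such matches and 2 matches to the CCAAT box on the opposite strand (37.4% of windows hold at least 1). Cebpb holds 3 such CREB cores in its window, 2 of them in the printed part (20.8% of windows hold at least 1). The GC box GGGCGG, not in capitals, matched 5 times in the Cebpb window, 1 time in that of Cebpg and 0 times in that of Cebpa (35.7% of windows hold at least 1). The STAT motif TTCNNNGAA, the C/EBP palindrome TTGCGCAA and the full CREB site TGACGTCA, which contains TGACG, matched in 0 of the 3 windows. Over all windows 8.30% hold the STAT motif, 0.183% the palindrome and 1.79% the full CREB site. Both strands were searched for these 7 motifs, and the capitals and the printed stretch were chosen after the matches were seen. The windows were rich in C and G, at 67.3% for Cebpa, 80.7% for Cebpb and 71.7% for Cebpg, against a median of 52.7% over all windows.

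Libraries held 588063 to 2002947 counts, made by a method that reads the 3' end of each transcript, so counts were not divided by gene length. Levels are CPM, counts scaled to a common library total over the tested genes, with TMM factors. The 4 members together took 387 to 1363 counts per library. Lung markers were abundant in every library, with the alveolar type 2 list at 23226 to 53021 summed CPM. ALDHbr 3 and ALDHbr 5 stood apart in the number of genes detected at equal depth, 22807 and 21577, against 16228 to 18056 in the other libraries. Over all genes, 0 of 10844 passed an adjusted p of 0.05 in either direction with edgeR's quasi-likelihood test (0%). An unadjusted p under 0.05 was reached by 402 genes (3.71%), and DESeq2 and limma-voom also called 0. At that unadjusted p, DESeq2 had 1465 of 33347 genes, without the low-count filter, and limma-voom 687 of 10844. With no low-count filter, edgeR called 185 genes.

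Cebpd, the acute-phase factor, was the member with the largest difference. Its level was 182, 217, 247, 286 and 192 CPM in ALDHbr lungs 1 to 5, and 119, 212, 135, 157 and 116 CPM in ALDHdim lungs 1 to 5. Each ALDHbr library lay above 4 of the 5 ALDHdim libraries, which held for 1.51% of all tested genes. The groups overlapped because ALDHdim 2 was higher than ALDHbr 1 and ALDHbr 5. The means were 225 ± 42.6 CPM in ALDHbr lungs against 148 ± 39.7 CPM in ALDHdim lungs (SD, n = 5 each), a fold of 1.52 (log2 fold change 0.60, SE 0.18). These values rest on 111 to 421 counts per library. The groups were fully separate for 0 of the 4 members, against 0.535% of all tested genes. The log2 fold change was 0.77 without ALDHdim 2 and 0.49 without ALDHbr 4, the library in which Cebpd was highest. In bulk tissue, fewer cells of a type and less RNA per cell cannot be told apart.

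**Figure D1:**
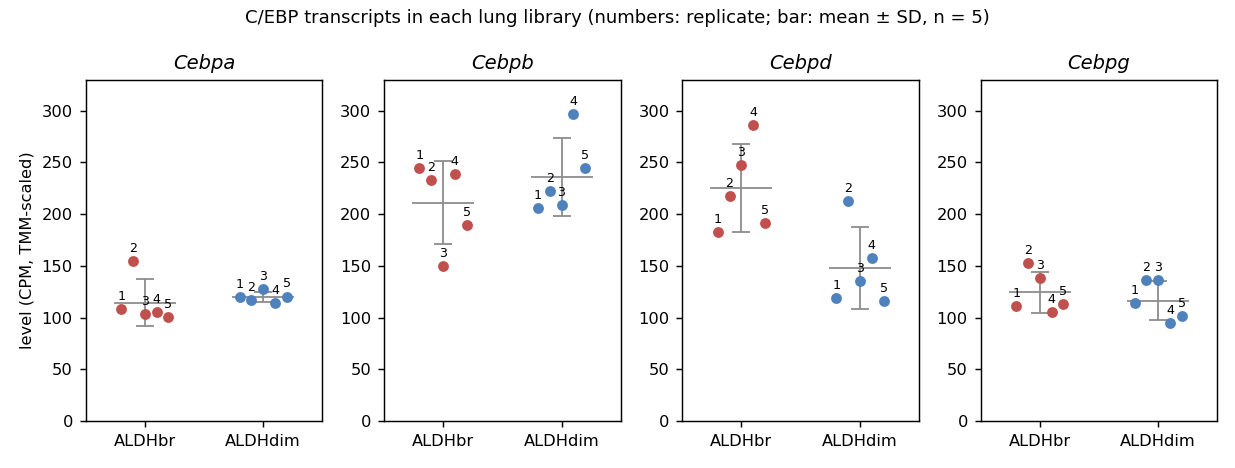
Level of each C/EBP gene in CPM (y axis, from 0) in each library, ALDHbr left and ALDHdim right. Points carry the replicate number and the grey bar is the mean ± SD of 5 libraries. Cebpd averaged 225 CPM in ALDHbr lungs against 148 CPM in ALDHdim lungs with ALDHdim 2 at 212 CPM, while Cebpb and Cebpg overlapped between groups. For Cebpa, ALDHbr 2 lay above and the other 4 ALDHbr libraries below the ALDHdim range, a pattern whose share over all tested genes was not computed.

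Cebpb, the inflammation-induced member, did not pass the threshold. Its level was 244, 233, 150.1, 238 and 189.9 CPM in ALDHbr lungs 1 to 5, and 206, 222, 208, 297 and 245 CPM in ALDHdim lungs 1 to 5. The lowest library was ALDHbr 3 and the highest ALDHdim 4, and the groups overlapped. The means were 211 ± 40.3 CPM in ALDHbr lungs against 236 ± 37.7 CPM in ALDHdim lungs (SD, n = 5 each). The log2 fold change was −0.16 (SE 0.15, adjusted p = 0.999 with edgeR), with a 95% interval from 0.72-fold to 1.12-fold. ALDHbr 3 and ALDHbr 5, the libraries with the most genes detected, held the lowest Cebpb levels of all. Without both, the log2 fold change of Cebpb was 0.022.

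Cebpa, the differentiation factor, did not pass either. Its level was 108, 155, 103, 105 and 101 CPM in ALDHbr lungs 1 to 5, and 120.0, 117, 128, 114 and 120.3 CPM in ALDHdim lungs 1 to 5. ALDHbr 2 was the highest library, and the other 4 ALDHbr libraries lay below all ALDHdim libraries, whose spread was small. How many of all tested genes show that pattern was not computed. The means were 115 ± 22.5 CPM in ALDHbr lungs against 119.7 ± 5.15 CPM in ALDHdim lungs (SD, n = 5 each). The log2 fold change was −0.08 (SE 0.13, adjusted p = 0.999 with edgeR), with an interval from 0.78-fold to 1.14-fold. The log2 fold change was −0.20 without ALDHbr 2, −0.04 without ALDHbr 5 and 0.010, in the other direction, without both ALDHbr 3 and ALDHbr 5. ALDHbr 2 had the lowest depth and the highest summed level of alveolar type 2 genes, 53021 CPM, and of club cell genes, 56307 CPM. The other 9 libraries held 23226 to 43384 and 17235 to 43053 CPM. The part of these cells in its Cebpa level was not tested.

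Cebpg, the partner of ATF4, did not pass the threshold. Its level was 111, 153, 138, 105 and 113 CPM in ALDHbr lungs 1 to 5, and 114, 136, 136, 95.1 and 101 CPM in ALDHdim lungs 1 to 5. Both groups covered nearly the same range, with ALDHbr 2 highest and ALDHdim 4 lowest. The means were 124 ± 20.3 CPM in ALDHbr lungs against 116 ± 19.2 CPM in ALDHdim lungs (SD, n = 5 each). The log2 fold change was 0.07 (SE 0.15, adjusted p = 0.999 with edgeR), with an interval from 0.85-fold to 1.30-fold. It was −0.0058 without ALDHbr 2. For Cebpa, Cebpb and Cebpg the intervals lay within 2-fold in either direction.

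**Figure D2:**
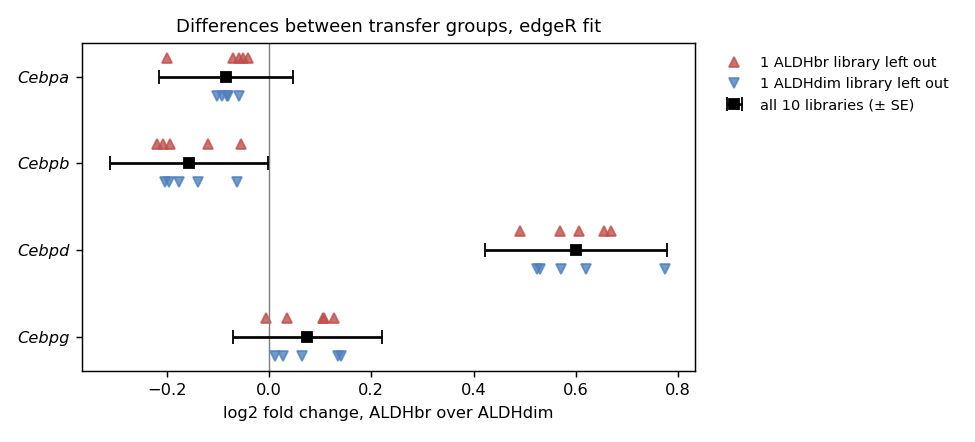
Log2 fold change of each C/EBP gene, ALDHbr over ALDHdim (x axis). Black squares with bars are the estimate and its SE over all 10 libraries, red triangles the estimates with 1 ALDHbr library left out and blue triangles those with 1 ALDHdim library left out. The estimates of Cebpd lay between 0.49 and 0.77 with a library left out, and those of the other 3 genes between −0.22 and 0.14.

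The make-up of the family within a library does not depend on scaling between libraries. Cebpd took 28.2, 28.7, 38.7, 38.9 and 32.2% of the summed counts of the 4 genes in ALDHbr lungs 1 to 5, and 21.2, 30.9, 22.3, 23.7 and 19.9% in ALDHdim lungs 1 to 5. ALDHdim 2 again lay among the ALDHbr libraries. Cebpb took 31.3 ± 5.13% in ALDHbr and 38.1 ± 5.25% in ALDHdim lungs (SD, n = 5 each), with ranges of 23.5 to 37.8% and 32.3 to 44.8%. Cebpd counts exceeded Cebpb counts in ALDHbr 3, ALDHbr 4 and ALDHbr 5, at ratios of 1.65, 1.20 and 1.01. In the other ALDHbr libraries the ratio was 0.75 and 0.93, and in ALDHdim lungs it was 0.47 to 0.96. As shares sum to the same total, a higher share of Cebpd lowers the others, and these shares hold the difference for which Cebpd was picked. The summed level of the 4 genes was 675 ± 68.5 CPM in ALDHbr lungs against 620 ± 54.5 CPM in ALDHdim lungs.

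**Figure D3:**
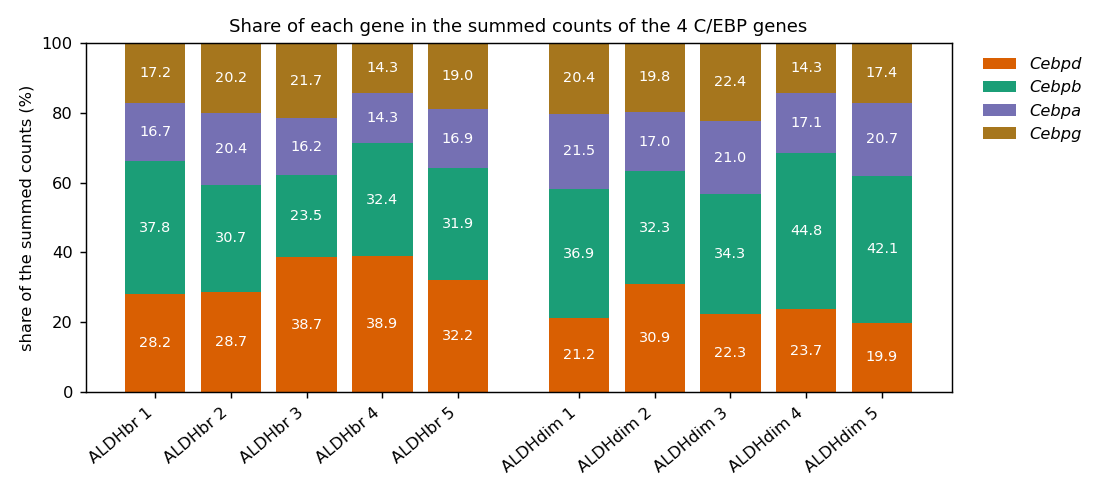
Share of Cebpd, Cebpb, Cebpa and Cebpg in the summed counts of the 4 genes (y axis, percent) in each library, ALDHbr left and ALDHdim right, with the share printed in each segment. The orange Cebpd segment at the base was 28.2 to 38.9% in ALDHbr and 19.9 to 30.9% in ALDHdim lungs.

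Cebpd was also the most variable member within groups. The SD of its log2 CPM within groups was 0.31, against 0.26 for Cebpb, 0.23 for Cebpg and 0.18 for Cebpa. Among the 500 tested genes nearest in level, 73.8% varied less than Cebpd, 58.8% less than Cebpb, 57.8% less than Cebpg and 36.6% less than Cebpa.

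The members did not vary together across libraries beyond the test's threshold. Levels (log2 CPM) were centred within each group, which takes out the group difference, and the 6 pairs were tested over 10 libraries by an exact two-sided permutation test within groups. Cebpa and Cebpg, the neighbours on chromosome 7, had Pearson's r of 0.58 (exact permutation p = 0.048, adjusted p = 0.29 over 6 pairs) and Spearman's rho of 0.47 (exact p = 0.14, adjusted p = 0.42). That relation rests on ALDHbr 2 and ALDHdim 3, the libraries farthest from the median of Cebpa, without which r was 0.03. Cebpb and Cebpg had r of −0.52 (exact permutation p = 0.15, adjusted p = 0.46) and rho of −0.54 (exact p = 0.14, adjusted p = 0.42), with r of −0.30 without ALDHbr 3 and ALDHdim 4. Without ALDHbr 2 alone, r was −0.78 (adjusted p = 0.060 by the exact permutation test, 0.060 to 0.79 over all alternatives). Cebpb and Cebpd, both known as inflammation-induced, had r of 0.0061 (exact permutation p = 0.99, adjusted p = 0.99) and rho of 0.0061 (exact p = 1, adjusted p = 1), with r of 0.09 without ALDHbr 3 and ALDHdim 4. Cebpd was highest in ALDHbr 4 and ALDHdim 2 of their groups, and Cebpb in ALDHbr 1 and ALDHdim 4. The lowest Cebpb library, ALDHbr 3, was second highest of its group in Cebpd. Cebpa with Cebpb, Cebpa with Cebpd and Cebpd with Cebpg had r of 0.21, −0.12 and 0.24, with an adjusted p of 0.93 each by the exact permutation test. Their rho was 0.02, −0.28 and 0.21 (adjusted p of 1, 0.78 and 0.88), and r was 0.20, −0.19 and 0.31 without the 2 libraries farthest in the gene named before the other.

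**Figure D4:**
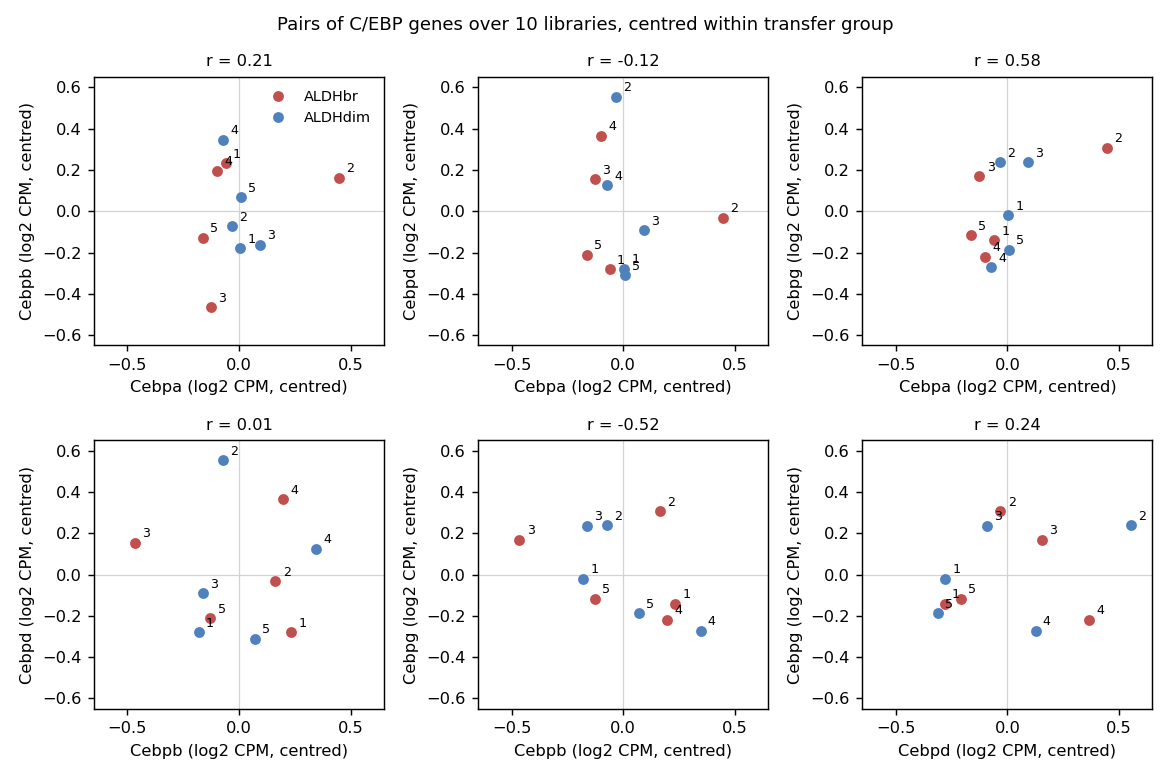
Levels of each pair of C/EBP genes in log2 CPM centred within group (both axes), ALDHbr in red and ALDHdim in blue, with the replicate number beside each of 10 libraries. The upper right panel shows Cebpa and Cebpg at r = 0.58 with ALDHbr 2 far to the right, and the lower left panel Cebpb and Cebpd at r = 0.0061.

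The genes whose levels followed each member most closely, on the same centred scale over 10 libraries, are given as a description. For Cebpb they were Letm1 (r = 0.97), a mitochondrial ion exchanger, Jarid2 (0.96), a Polycomb cofactor, Kcnab2 (0.96), a potassium channel subunit, Ganab (0.94), an ER glucosidase, and Flot2 (0.94), a flotillin of membrane rafts. For Cebpa they were Apip (0.96), an enzyme of methionine salvage, Grhpr (0.95), a glyoxylate reductase, Ppp2cb (0.94), a phosphatase subunit, Il17rc (0.93), an IL-17 receptor chain, and Pak1ip1 (0.93). For Cebpg they were Mpp5 (0.96), a scaffold of epithelial polarity, Dixdc1 (0.96), Gpm6a (0.95), a membrane glycoprotein of alveolar type 1 cells, Cav2 (0.94), a caveolin, and Vamp5 (0.94). For Cebpd they were Slc7a6os (0.87), Dusp16 (0.87), a MAP kinase phosphatase, Mllt10 (0.85), a cofactor of histone methylation, Ggnbp2 (0.84) and Mns1 (0.83), a protein of sperm tails and cilia. Over 10402 named genes the closest match had a median r of 0.96 in these 10 libraries. Of these genes, 0.394% had a weaker closest match than Cebpd, 54.2% than Cebpa, 69.6% than Cebpb and 59.8% than Cebpg, a description computed after the data were seen.

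Of the 3 relatives of the family, 2 were tested, and both had lower estimates in ALDHbr lungs that did not pass. Cebpz, which shares the name but is no leucine zipper protein, was at 30.4, 33.3, 47.9, 33.8 and 44.2 CPM in ALDHbr lungs 1 to 5, and at 55.4, 55.5, 51.9, 52.2 and 38.5 CPM in ALDHdim lungs 1 to 5. All 5 ALDHbr libraries lay below the 4 ALDHdim libraries other than ALDHdim 5. The share of all tested genes with that pattern was not computed. The means were 37.9 ± 7.63 CPM in ALDHbr lungs against 50.7 ± 7.04 CPM in ALDHdim lungs, a log2 fold change of −0.42 (SE 0.17, adjusted p = 0.999 with edgeR). Its opposite-strand neighbour Cebpzos, which shares 3.67% of the exonic bases of Cebpz, averaged 26.1 ± 5.88 CPM in ALDHbr lungs against 18.2 ± 3.21 CPM in ALDHdim lungs. Without strand their shared reads cannot be told apart. The annotated overlap lies at the 3' ends of both genes, where these libraries read, so a share of bases may understate the shared reads. Ddit3 (CHOP), which pairs with C/EBP proteins under ER stress, averaged 7.71 ± 3.39 CPM in ALDHbr lungs against 10.8 ± 3.02 CPM in ALDHdim lungs, a log2 fold change of −0.41 (SE 0.31, adjusted p = 0.999 with edgeR). Ddit3 held 130 counts over all libraries, with 1 count (1.96 CPM) in ALDHbr 2. Mars overlaps Ddit3 on the opposite strand, and another annotated Ddit3 entry on the same strand is absent from the count table. Cebpe, the factor of late granulocyte maturation, had 3 counts in 3 ALDHbr libraries and 2 counts in 2 ALDHdim libraries. It was not tested in the fit, and an exact two-sided permutation test of its CPM gave p = 0.44 (the smallest possible p was 0.0079). A difference in Cebpe was not detectable at this depth, where 3 counts correspond to 1.51 to 5.87 CPM.

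Of the partners and regulators of the proteins, 0 of 12 tested bZIP partners and 0 of 5 genes of C/EBP turnover passed the threshold. Over all genes 0 of 10844 passed. Among partners 6 estimates were higher and 6 lower, with a median log2 fold change of 0.0010, against 0.01 over all tested genes. Atf4, the stress factor that pairs with C/EBPγ, had a log2 fold change of −0.10 (SE 0.13), Junb −0.22 (SE 0.22), Jund −0.02 (SE 0.13) and Jun 0.10 (SE 0.19). Of the turnover genes, Trib1 and Trib2, scaffolds that bring C/EBPα to the ubiquitin ligase Cop1, had −0.22 (SE 0.17) and 0.04 (SE 0.20). Cop1 itself had 0.16 (SE 0.16), and the ubiquitin ligase subunit Fbxw7 0.05 (SE 0.17).

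In each list of signals known to induce Cebpd and Cebpb, 0 genes passed the threshold, the same share as the 0 of 10844 over all genes. Of all tested genes, 51.9% had higher estimates in ALDHbr lungs. In the IL-6 and STAT3 list 2 estimates were higher and 8 lower (median −0.12). The shared receptor Il6st had a log2 fold change of −0.12 (SE 0.14), Stat3 −0.25 (SE 0.22), its feedback inhibitor Socs3 0.19 (SE 0.40) and the receptor Il6ra −0.29 (SE 0.24). The cytokines Il6, Osm, Lif and Il11 were below the filter and not tested. In the glucocorticoid list 4 of 13 estimates were higher and 9 lower (median −0.14). The receptor Nr3c1 had −0.14 (SE 0.15) and its targets Fkbp5 −0.10 (SE 0.26), Tsc22d3 0.28 (SE 0.32) and Per1 0.22 (SE 0.42). The median of the 13 genes was 0.017 without both ALDHbr 3 and ALDHbr 5. In the NF-κB list 4 estimates were higher and 5 lower (median −0.05), with Nfkbia at 0.08 (SE 0.17), Nfkb1 at 0.03 (SE 0.12), Rela at −0.05 (SE 0.16) and Tnfaip3 at 0.07 (SE 0.28). Its median was 0.07 without both of those libraries. The immediate-early genes had 2 higher and 6 lower estimates (median −0.21). Fos had −0.48 (SE 0.30), Jun 0.10 (SE 0.19), Egr1 −0.75 (SE 0.48) and Junb −0.22 (SE 0.22). Ier2, at −0.38 (SE 0.14), was the member of that list with an unadjusted p under 0.05, and it was named after its value was seen.

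Among the acute-phase, ATF4 stress and adipogenic lists 0 genes passed, the same share as the 0 of 10844 over all genes. Of all tested genes, 51.9% had higher estimates. The ATF4 stress list holds Atf4 and Ddit3, a partner and a relative of the C/EBP factors, and is not a list of C/EBP targets. Of 9 tested acute-phase genes, 0 passed, 1 estimate was higher and 8 were lower (median −0.21). Complement C3 had a log2 fold change of −0.33 (SE 0.22), lipocalin Lcn2 0.12 (SE 0.25), serum amyloid Saa3 −0.37 (SE 0.94) and haptoglobin Hp −0.16 (SE 0.15). Cp (ceruloplasmin), named after its value was seen as the list's gene with an unadjusted p under 0.05, averaged 266 ± 29.4 CPM in ALDHbr lungs against 369.8 ± 79.2 CPM in ALDHdim lungs (−0.47, SE 0.16, adjusted p = 0.999 with edgeR). In the ATF4 stress list 0 of 11 passed, with 7 higher and 4 lower estimates (median 0.08). Asns, the asparagine synthetase, had 0.29 (SE 0.20), Atf4 −0.10 (SE 0.13), Psat1 of serine synthesis 0.32 (SE 0.36) and Sesn2 0.11 (SE 0.25). In the adipogenic and lipid storage list 0 of 11 passed, with 3 higher and 8 lower estimates (median −0.17). Pparg, which C/EBP factors induce in fat cell formation, had 0.03 (SE 0.25), the lipid droplet coat Plin2 −0.12 (SE 0.17), Lpl (lipoprotein lipase) −0.39 (SE 0.25) and the fatty acid carrier Fabp4 0.010 (SE 0.18). The summed level of this list was 2999.7 to 3452 CPM in ALDHbr and 3378 to 4013 CPM in ALDHdim lungs, overlapping in ALDHbr 1 and ALDHdim 5. These lists were written with earlier results of these data known and are counts only.

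**Figure D5:**
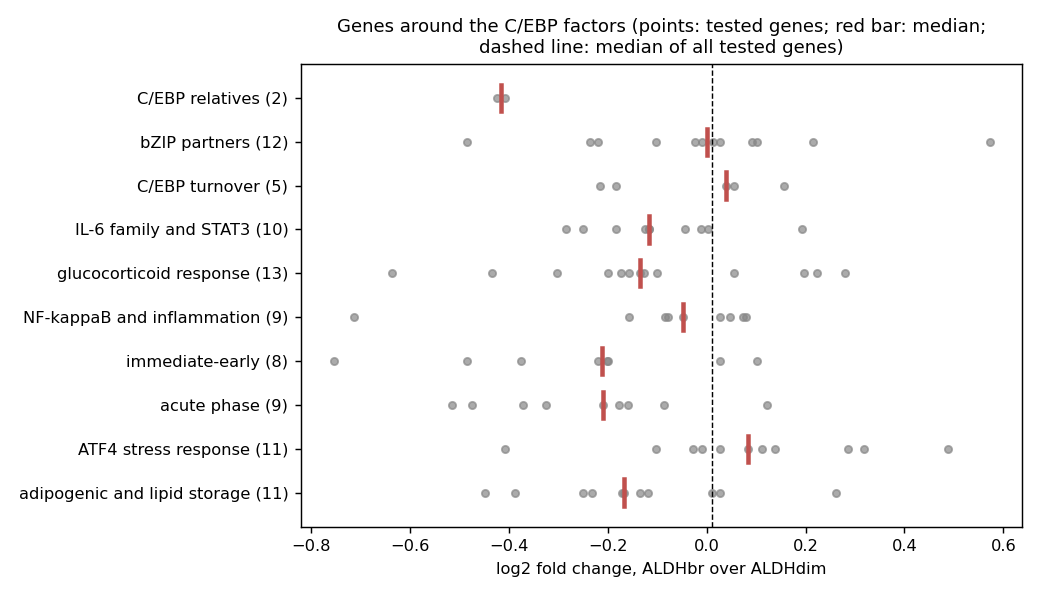
Log2 fold change, ALDHbr over ALDHdim (x axis), of the tested genes in lists around the C/EBP factors (rows, number tested in brackets). The lists hold C/EBP relatives, partners, regulators and inducing signals, and acute-phase, ATF4 stress and lipid storage genes. Grey points are genes, red bars list medians and the dashed line the median of all tested genes; medians lay between −0.42 and 0.08.

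Cell types that carry C/EBP transcripts overlapped between the groups in their markers. The neutrophil and granulocyte list, 7 of 10 genes tested, had 0 past the threshold, 1 higher and 6 lower estimates (median −0.87). Its summed level was 199 to 364 CPM in ALDHbr and 236 to 1013 CPM in ALDHdim lungs. ALDHdim 2, the ALDHdim library with the highest Cebpd, held the 1013 CPM, and the median was −0.35 without it. Camp and Ngp, the granule genes that C/EBPε induces, had 6 and 12 counts over all libraries. The monocyte and macrophage list had 3 higher and 8 lower estimates (median −0.17) and a summed level of 12318 to 21580 CPM in ALDHbr and 13253 to 16002 CPM in ALDHdim lungs. The fibroblast list had 1 higher and 5 lower estimates (median −0.26), with 946 to 2089 CPM in ALDHbr and 1203 to 2557 CPM in ALDHdim lungs. The alveolar type 2 list had a median of −0.03, the club cell list −0.09, the alveolar type 1 list 0.13, the endothelium list −0.09 and the smooth muscle list −0.16. Without ALDHdim 2 the club cell median was 0.19 and the endothelium median 0.12, both in the other direction. The adipocyte list (2 genes tested), the mesothelium list (3 genes) and the T and B cell list (2 genes) had medians of −0.15, 0.32 and 0.27. No gene of these lists passed the threshold, as over all 10844 tested genes, of which 51.9% had higher estimates. Of the lists' genes in the table, 0 were at 0 in every library. The part of any cell type in the level of Cebpd was not tested.

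Median r over each list's genes, in the centred levels, describes how each member related to these lists, with no test. With Cebpb the NF-κB list had a median r of 0.52 and the IL-6 and STAT3 list 0.40, against 0.0068 over all genes. The smooth muscle list, of 4 genes, stood at 0.51 as well. Cebpb and the summed NF-κB genes were lowest in ALDHbr 3, and without that library the medians were 0.11 for NF-κB, 0.24 for IL-6 and STAT3 and 0.20 for smooth muscle. The acute-phase list stood at 0.35 with Cebpb, and at 0.37 without ALDHbr 3. The relatives (2 genes) stood at −0.56 with Cebpb, and at −0.45 without ALDHbr 3. With Cebpd the NF-κB list had a median of 0.10, the IL-6 and STAT3 list −0.09 and the acute-phase list −0.13. Without ALDHdim 2, the ALDHdim library highest in Cebpd, these were 0.07, 0.036 and 0.22. The immediate-early list had −0.37 with Cebpd, and −0.03 without ALDHdim 2. With Cebpa the club cell list had a median r of 0.68 and the alveolar type 2 list 0.45, which were 0.23 and 0.28 without ALDHbr 2. Between them lay the adipocyte list (2 genes) at 0.60, the mesothelium list (3 genes) at 0.51 and the alveolar type 1 list at 0.49. Without ALDHbr 2 these were 0.45, 0.0067 and 0.20. With Cebpg the club cell list had 0.67 and the alveolar type 2 list 0.62, which were 0.56 and 0.52 without ALDHbr 2. The mesothelium list had 0.63 and the adipocyte list 0.59 with Cebpg, which were 0.47 and 0.50 without ALDHbr 2. The acute-phase list had −0.66 with Cebpg, and −0.62 without ALDHbr 2. The IL-6 and STAT3 list had −0.55 with Cebpg, and −0.64 without ALDHbr 2.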

How the data were processed

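Per the labels' protocols, libraries were made by BRB-seq, in which dT-primed samples carry barcodes and a unique molecular identifier (UMI) and are pooled before amplification. Per the submitters' processing notes the tools included featureCounts 2.0.1, DESeq2, HISAT2 2.2.1, Trim Galore 0.6.7 and UMI-tools, with builds GRCm38 and GRCh38, without roles. The authors deposited raw counts per gene. The sources used here do not say whether UMIs were collapsed, and intervals cover the spread of these counts only. Positions are from GENCODE M21 (GRCm38).

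Counts were filtered with filterByExpr (minimum count 10; 97.3% of counts kept), TMM-scaled, then fitted by glmQLFit (robust) and glmQLFTest of edgeR 4.0.16, Benjamini-Hochberg over 10844 genes, threshold 0.05. R was 4.3.3, limma 3.58.1, DESeq2 1.42.0 and matplotlib 3.10.9. Correlations used log2 CPM with a prior count of 2 and all 14400 orders within groups, so the smallest p is 6.94e-05. The ALDHbr against ALDHdim comparison was also simulated (10844 genes, 3 simulations). Of genes changed 1.5-fold 18.7% were recovered, of those changed 2-fold 69.3%, and 4.76% of calls were false. Counts were drawn independently for each gene and library from the fitted dispersions. No simulated library stood apart as ALDHbr 3 and ALDHbr 5 did, and genes did not vary together, so these shares may not hold for the real libraries.

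The members and the 21 lists (183 entries) were chosen with earlier results of these data known. Genes named by rule are the members, relatives and the 5 closest genes to each member. From each other list that is not a marker list, the rule takes the 4 tested genes that stand earliest. Named outside it are Ier2, Cp, Camp, Ngp, the untested Il6, Osm, Lif and Il11, and the neighbours that overlap a member or relative. Family shares, exon overlaps, promoter motifs, list correlations and the background of closest matches were added after the data were seen. Marker lists are described by their counts and summed levels.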

Additional observations from a re-analysis of the deposited data

Results flagged for a closer look

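Of 62 sets of 5 values within a group (levels of the members and of Cebpz and Ddit3, shares of the family counts, the summed level of the 4 members, and scores of the lists other than the relatives), 3 had 1 library far from the other 4 relative to the range; chance alone gives about 1 in 20, or 3.1 sets. Cebpa was at 154.5 CPM in ALDHbr 2, where its group otherwise lay at 101 to 108 CPM (gap 0.86 of the range). Cebpz was at 38.5 CPM in ALDHdim 5, where its group otherwise lay at 51.9 to 55.5 CPM (0.79). The adipogenic and lipid storage score, a mean of centred log2 CPM, was 0.30 in ALDHdim 2, against −0.04 to 0.04 in the other ALDHdim libraries (0.75).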

How the results depend on the processing

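No alternative called a gene except testing without a filter on low counts, where 185 were called, 182 higher and 3 lower, of which 8 had been in the main test; the cause was not tested. Over the genes each tested, the median log2 fold change was 0.22 without the filter and 0.28 with DESeq2, and −0.048 and −0.0056 over the 10844 genes, so the shift lies in low-count genes. Over 18 alternatives the log2 fold change of Cebpd was 0.49 to 0.77, which is no sign of stability, since Cebpd was chosen for this difference in the same libraries. For Cebpa, Cebpb and Cebpg no alternative passed the threshold (lowest adjusted p 0.51). Their log2 fold changes were −0.20 to −0.04, −0.22 to −0.05 and −0.0058 to 0.14 with a library left out. Without both ALDHbr 3 and ALDHbr 5, an alternative chosen after seeing the data, Cebpa was at 0.010 and Cebpb at 0.022, in the other direction. The correlation of Cebpa and Cebpb was −0.021 to 0.38 with a library left out, that of Cebpb and Cebpd −0.15 to 0.20 and that of Cebpd and Cebpg −0.084 to 0.50, so each changed sign. List medians moved by more than the spread between libraries in 3 of 273 recomputed values, and medians changed sign, of 13 alternatives, in 9 for bZIP partners, 6 for C/EBP turnover, 5 for club cell (−0.33 to 0.21), 4 for alveolar type 2, 3 each for NF-κB and adipocyte, 2 for endothelium and 1 each for the glucocorticoid and smooth muscle lists. Samples of both groups share replicate numbers, and the sources used here do not say whether a number marks a batch. Deviations of same-numbered libraries correlated at 0.06 to 0.37. Each library was compared with the 5 of the other group, and 7 of 10 correlated best with their own number. The main tests treat the libraries as unpaired. With the replicate block, 0 genes passed (727 at an unadjusted p under 0.05, against 402), Cebpd was at 0.63, Cebpa at −0.09, Cebpb at −0.17 and Cebpg at 0.09. With group and number taken out, 5 differences remain, and r was −0.93 for Cebpa and Cebpd (adjusted p = 0.45, exact permutation), −0.64 for Cebpb and Cebpd and −0.31 for Cebpd and Cebpg. The test for these values was changed, after a first result was seen, to an exact permutation of the 5 differences because the first was not valid; none passed under either. Depth limits Cebpe most, with 5 counts in all.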
